A study of Homo sapiens with 6 samples.

Results

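The ADAM, ADAMTS and ADAMTS-like genes were followed in pancreatic carcinoma cells carrying wild-type or R272K SMAD4. Members were all gene symbols made of ADAM, ADAMTS or ADAMTSL followed by digits only, each counted once, which gave 46 of 60835 distinct symbols: 22 ADAM, 19 ADAMTS and 5 ADAMTSL genes. The rule used names and no measured value. The expression filter kept 23 members, namely 10 ADAM, 10 ADAMTS and 3 ADAMTSL genes, and left 23 out of the test. The cells were PANC-1, an established human line labelled as epithelioid carcinoma of the pancreas, and carried a SMAD4 knockout. On day 3 there were 3 libraries from knockout cells transfected with wild-type SMAD4 (WT) and 3 from knockout cells transfected with SMAD4 carrying R272K, an arginine-to-lysine change (R272K). The labels do not name a clone for the knockout or a promoter for the transfected SMAD4, and a knockout library without SMAD4 was not analysed here. Nothing in the labels ties replicates to separate cultures, and the spread that p-values measure, which is that between these samples, may be technical.

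ADAM proteins are membrane-anchored metalloproteinases. Those with an intact zinc-binding site in the catalytic domain act as sheddases, cutting growth factors, receptors and adhesion molecules off the cell surface, whereas members that lack the site act mainly in cell contact. ADAMTS proteins are secreted relatives with thrombospondin repeats that cut proteoglycans, procollagens and other matrix proteins, and ADAMTS-like proteins keep the ancillary domains without the protease. In pancreatic carcinoma the family is known for release of EGFR ligands and for matrix turnover. In bulk RNA a lower share of cells with a transcript and less of it per cell cannot be told apart.

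The zinc site was found in both ADAM and ADAMTS genes. Its coding bases are shown for 8 members: 4 of the sheddases described below, and ADAMTS genes with either form of the site. The site of ADAM9 was also found and is not shown. They were read from GENCODE release 29 coding sequences on GRCh38, 5′ to 3′ on the coding strand, as 33 bases or 11 codons. Capitals mark the codons of the zinc-binding histidines, of the catalytic glutamate and of the residue that is glycine or asparagine in this family. Sites in ADAM10, ADAMTS1, ADAMTS4, ADAMTS15 and ADAMTS16 are split between a pair of exons, and their coordinates include the intron. The first 4 below are from sheddases.
ADAM10 (chr15:58627881-58633225, minus strand): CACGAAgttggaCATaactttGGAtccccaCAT
ADAM15 (chr1:155056995-155057027, plus strand): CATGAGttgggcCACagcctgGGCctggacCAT
ADAM17 (chr2:9510078-9510110, minus strand): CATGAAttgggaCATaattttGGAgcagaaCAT
ADAM19 (chr5:157505734-157505766, minus strand): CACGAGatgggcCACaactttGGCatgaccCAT
ADAMTS1 (chr21:26841143-26841867, minus strand): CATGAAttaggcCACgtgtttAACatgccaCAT
ADAMTS4 (chr1:161195613-161196180, minus strand): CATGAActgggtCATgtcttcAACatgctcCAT
ADAMTS15 (chr11:130461612-130462109, plus strand): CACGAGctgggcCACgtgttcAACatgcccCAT
ADAMTS16 (chr5:5191774-5200147, plus strand): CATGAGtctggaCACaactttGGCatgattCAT

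A search of the coding sequences for this pattern, with glycine or asparagine allowed at the last capital codon before the final histidine, found it in 30 members. These were 12 ADAM and 18 ADAMTS genes, and 16 of the 30 were tested. The asparagine codon stood in 4 ADAMTS genes, of which ADAMTS1, ADAMTS4 and ADAMTS15 were tested, and the glycine codon in the other 14. No match was found in 8 ADAM genes, in 1 ADAMTS gene (ADAMTS8) and in the 5 ADAMTSL genes. ADAM5 and ADAM6 had no protein-coding transcript in this annotation. A missing match says only that these codons were not in the coding sequence searched.

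The libraries held 14776148 to 17706201 counts over distinct symbols, of which the members took 0.111% to 0.139%. SMAD4 itself stood at 83.4, 93.6 and 89.0 CPM (counts relative to the TMM-scaled library total) in WT libraries 1 to 3 and at 40.6, 45.6 and 43.6 in R272K libraries 1 to 3. Its log2 fold change was -1.03 with an SE of 0.075 and an adjusted p of 6.28e-06 (edgeR quasi-likelihood test). The amount of SMAD4 transcript and the R272K change therefore cannot be told apart in any comparison of these groups. All 8 pancreatic epithelial markers were present above 1 TPM (a length-scaled abundance), with summed levels of 4170 to 4650 in WT and 4976 to 5451 in R272K. Summed markers of leukocytes reached at most 6.62 TPM, and those of fibroblasts, endothelium, acinar cells and islets less, with the islet hormone SST at 0 in every library. On the first principal component WT replicate 1 stood apart at -26.8, with WT libraries 2 and 3 at -7.31 and -0.17. The R272K libraries lay at 9.59 to 13.0, so that component also set the groups apart. The log2 ratio of WT replicate 1 to the other WT libraries ran against transcript length. Spearman rho was -0.40 over 15911 genes, a description across genes that are not independent. The tested members' transcripts had a median relative length of 3.03, against 1.76 over all genes tested, and their median log2 ratio of WT replicate 1 to the other WT libraries was -0.10, against 0.01. Of the 23 tested members, 17 stood lower in WT replicate 1 than in the mean of the other WT libraries. Several results below are therefore given with and without that library.

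The family's RNA came mostly from 4 genes. ADAM9 led with a mean of 255.6 TPM over the 6 libraries and was above every other member in each library. The next places differed between groups. In WT they were held by ADAMTS15 at 72.3 ± 6.20 TPM, ADAM19 at 64.2 ± 8.75 and ADAM10 at 59.9 ± 9.18 (SD, n = 3). In R272K the order was ADAM19 at 77.8 ± 1.59 TPM, ADAM10 at 71.6 ± 1.62 and ADAMTS15 at 60.1 ± 2.49 (SD, n = 3). ADAM19 was above ADAM10 in all 6 libraries. With ADAM9, these genes supplied 76.5% to 78.6% of the members' TPM in each library. Over the 6 libraries ADAM17 had a mean of 36.5 TPM, ADAM15 at 30.4, ADAMTS16 at 13.1 and ADAMTSL5 at 11.5. Levels fell between 1 and 10 TPM in 9 further members and below 1 TPM in 29. The plot of levels by library shows the order.

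**Figure D1:**
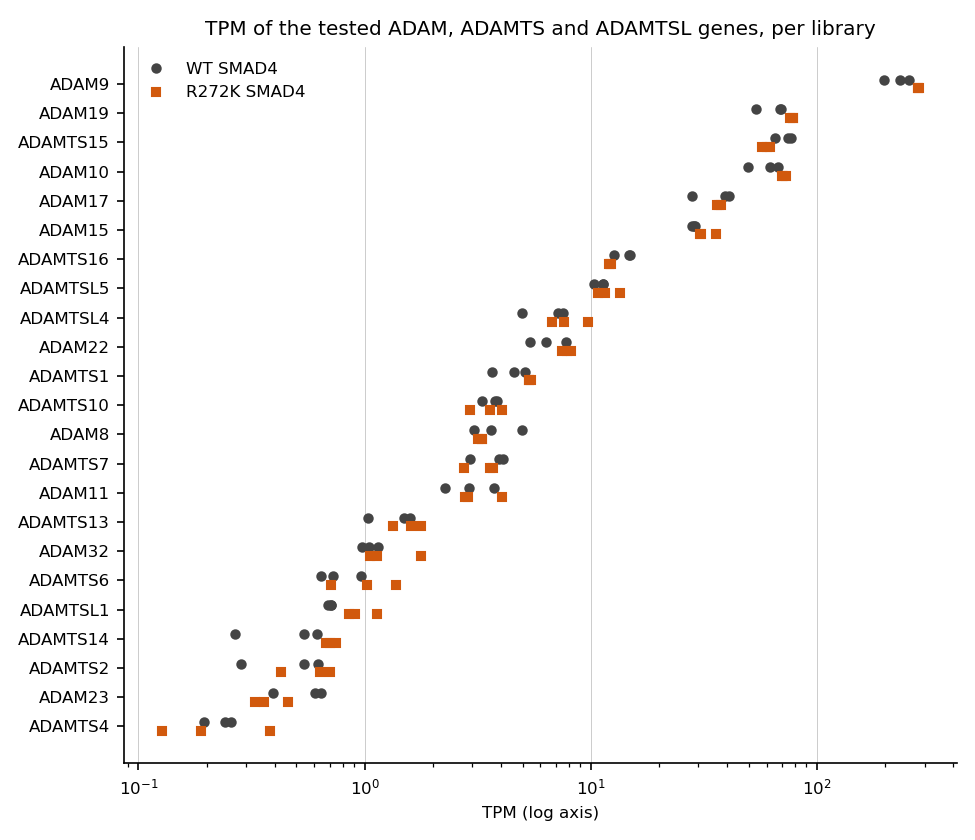
Level of each tested member in each of the 6 libraries, in TPM on a log axis, with members ordered by mean level. ADAM9 lies above the other members in all libraries, with a mean of 255.6 TPM, and the points of WT and R272K libraries lie close together for most members.

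Comparing R272K with WT across the family, 1 of 23 tested members fell, ADAMTS15, and none rose at an adjusted p below 0.05 in edgeR's quasi-likelihood test. Of all 15911 genes tested, 1.21% were called, 0.685% higher and 0.528% lower. At an unadjusted p below 0.05 there were 6 members, 4 higher and 2 lower, against 14.3% of all genes tested. The groups did not overlap in CPM for 9 members, against 21.4% of all genes: 7 members lay above WT in all R272K libraries (10.9% of all genes) and 2 lay below (10.4%). The fitted log2 fold change was above 0 for 16 of 23 members, or 69.6% against 49.7% of all genes. Its median was 0.16 over the members and -0.0011 over all genes. In the fit without WT replicate 1 the estimate was above 0 for 16 members and below 0 for 8. The 23 tested members were kept by the filter and are not the whole family.

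**Figure D2:**
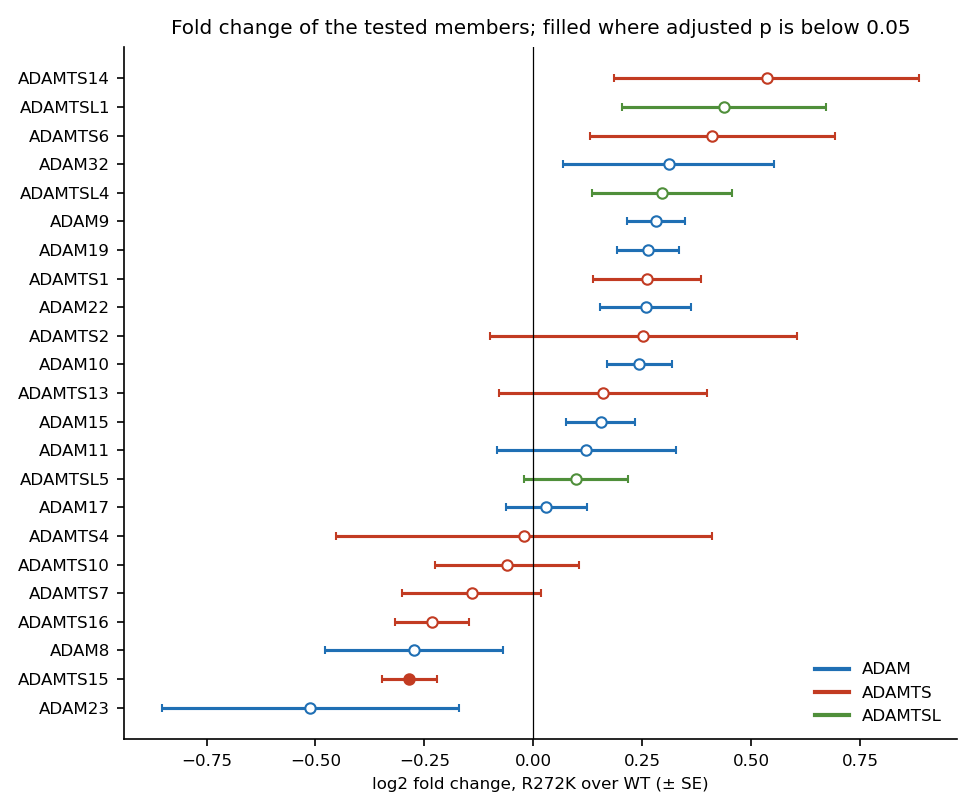
Fitted log2 fold change of R272K over WT for the 23 tested members, with bars of 1 standard error and classes marked. Estimates run from -0.51 to 0.54, 16 lie above 0, and ADAMTS15 at -0.28 is the called member.

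ADAMTS15, a secreted protease that cuts the proteoglycans versican and aggrecan, was the called member. The gene (ENSG00000166106) lies at chr11:130448645-130476645 on the plus strand. It stood at 133.8, 146 and 139 CPM in WT libraries 1 to 3, and at 116, 110.5 and 117 in R272K libraries 1 to 3. All 3 R272K libraries lay below all 3 WT libraries. The means were 139 ± 6.12 CPM (SD, n = 3) in WT and 114.5 ± 3.60 (SD, n = 3) in R272K, and the log2 fold change was -0.28 (SE 0.063, adjusted p = 0.0487, edgeR quasi-likelihood test). Without WT replicate 1 the log2 fold change was -0.31, with an adjusted p of 4.11e-05 by the same test. The call was lost when any of the other 5 libraries was left out: the adjusted p was 0.212 without WT replicate 2, 0.0545 without WT replicate 3, and 0.244, 0.30005 and 0.206 without R272K replicates 1, 2 and 3.

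The other proteoglycan-cutting ADAMTS genes were much lower. ADAMTS1, which shares the asparagine codon, stood at 7.30, 8.45 and 9.24 CPM in WT and 9.91, 9.98 and 9.97 in R272K. Its groups did not overlap, R272K being higher, and its log2 fold change of 0.26 was not called (adjusted p = 0.362, edgeR); without WT replicate 1, the lowest library, it was 0.17. ADAMTS4 was the member just inside the filter, with 68 counts over the 6 libraries, and ADAMTS9 was just outside it with 62. ADAMTS5, ADAMTS8, ADAMTS9 and ADAMTS20 were not tested. Of the 7 genes in this class 3 were tested, and their median log2 fold change was -0.02.

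ADAMTS16, a secreted protease with the glycine codon, lay below WT in all R272K libraries. It stood at 21.6, 23.3 and 22.996 CPM in WT and at 19.0, 19.4 and 19.3 in R272K. The log2 fold change of -0.23 (SE 0.085) was not called, with an adjusted p of 0.232 in edgeR's quasi-likelihood test.

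The remaining ADAMTS genes were not called. ADAMTS14, a procollagen N-propeptidase, had the highest estimate of the tested members at 0.54 (SE 0.35, adjusted p = 0.520, edgeR), with 1.03, 1.08 and 0.459 CPM in WT against 1.25, 1.20 and 1.30 in R272K. WT replicate 3, the lowest library, held 7 counts of it, and without that library the estimate was 0.24. On log2(TPM + 1) it was 0.22. ADAMTS2, of the same class, had an estimate of 0.25. Among ADAMTS genes of other roles the estimates were 0.41 for ADAMTS6, 0.16 for ADAMTS13, which cleaves von Willebrand factor, -0.06 for ADAMTS10 and -0.14 for ADAMTS7. The ADAMTS7 value is uncertain, because the gene has near-identical pseudogene copies, and whether they shared its reads was not tested. The pseudogene symbols ADAMTS7P1, ADAMTS7P3 and ADAMTS7P4 held 3, 6 and 3 counts over the 6 libraries, against 573 for ADAMTS7.

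Among sheddases, ADAM9 came nearest to a call. The gene (ENSG00000168615) lies at chr8:38996754-39105445 on the plus strand. It stood at 478, 524 and 561 CPM in WT libraries 1 to 3 and at 631, 639 and 630.2 in R272K libraries 1 to 3. R272K lay above WT without overlap, and the WT libraries spread more widely, with means of 521 ± 41.8 CPM (SD, n = 3) in WT and 633 ± 5.07 (SD, n = 3) in R272K. The log2 fold change was 0.28 (SE 0.066), and the adjusted p of 0.0610 in edgeR's quasi-likelihood test missed the threshold. Without WT replicate 1 the estimate was smaller, 0.22, and the gene was called higher with an adjusted p of 0.000131 (edgeR).

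ADAM19, a sheddase of neuregulins, stood at 119.8, 140.5 and 139.9 CPM in WT and 157, 163 and 160.1 in R272K. Its groups did not overlap, and the log2 fold change was 0.26 (SE 0.071, adjusted p = 0.108, edgeR). ADAM10, the protease that makes the ligand-dependent cut in Notch receptors and sheds E-cadherin, stood at 189.7, 220.0 and 233 CPM in WT and at 251, 252 and 257 in R272K. Its groups did not overlap either, and the log2 fold change was 0.24 (SE 0.074, adjusted p = 0.151, edgeR). WT replicate 1 was the lowest library for ADAM9, ADAM19 and ADAM10. Without it the log2 fold changes of ADAM19 and ADAM10 were 0.19 and 0.16, and both were called higher, with adjusted p of 0.00880 and 0.0168 (edgeR). In that fit 4 members were called, ADAM9, ADAM19, ADAM10 and ADAMTS15, against 5.36% of all genes tested.

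ADAM17, the sheddase of TNF and of several EGFR ligands, had an estimate near 0. It stood at 63.2, 81.3 and 82.8 CPM in WT and at 78.9, 77.9 and 75.0 in R272K, so that the groups overlapped and WT replicate 1 was the lowest library. The log2 fold change was 0.03 (adjusted p = 0.916, edgeR), and without WT replicate 1 it was -0.088. ADAM15, which carries both the zinc site and an integrin-binding domain, stood at 43.2, 41.0 and 40.2 CPM in WT and 44.0, 43.9 and 50.5 in R272K. The groups did not overlap, and the log2 fold change of 0.15 was not called (adjusted p = 0.406, edgeR). Without R272K replicate 3, the highest library, it was 0.084. ADAM8, a sheddase better known from leukocytes, had an estimate of -0.27 (adjusted p = 0.581, edgeR). Over the 6 tested genes of this class the median was 0.20, and 4 lay above WT in all R272K libraries, as did 10.9% of all genes tested.

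**Figure D3:**
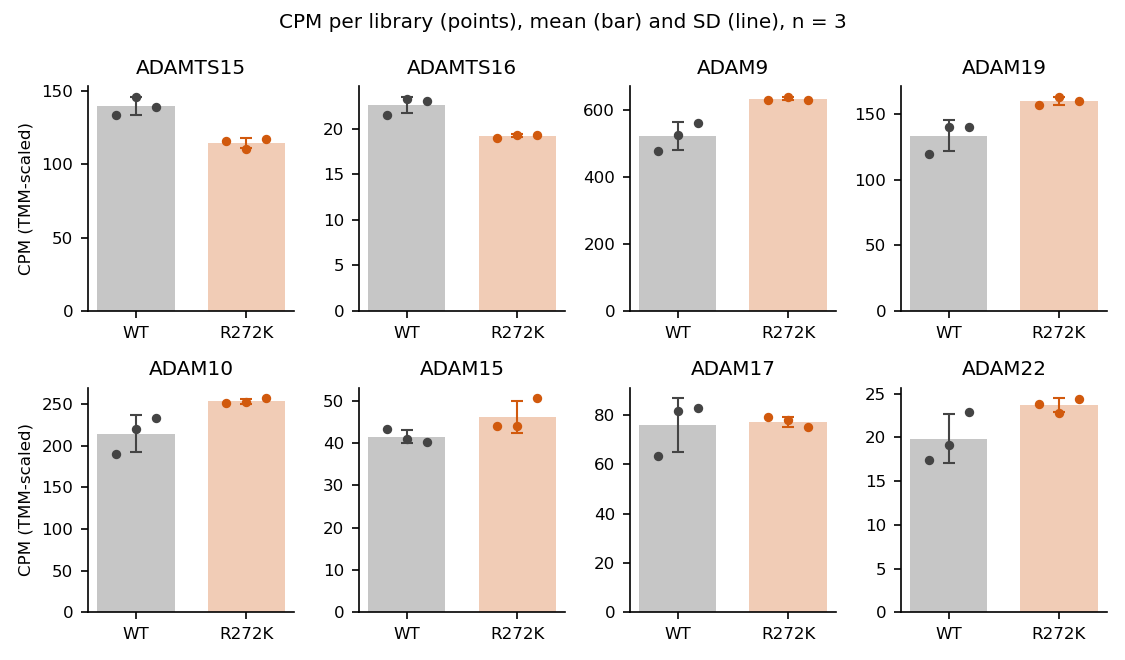
CPM in each library for 8 members, with bars at the group mean, lines for 1 SD and points for the 3 libraries of each group. ADAMTS15 and ADAMTS16 sit lower in all R272K libraries, ADAM9, ADAM19, ADAM10 and ADAM15 sit higher, and ADAM17 and ADAM22 overlap.

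ADAM genes without the zinc site were also not called. ADAM22, a receptor for the LGI proteins in nerve cells, stood at 17.5, 19.1 and 22.9 CPM in WT and 23.8, 22.8 and 24.4 in R272K, which overlapped. Its log2 fold change was 0.26 (SE 0.105, adjusted p = 0.282, edgeR). WT replicate 1 was the lowest library for ADAM22, and an estimate without that library is not given. The estimate was -0.51 for ADAM23, the lowest of the tested members, 0.31 for ADAM32 and 0.12 for ADAM11. ADAM9 and ADAM32 lie 1.5 kb apart on the same strand of chromosome 8 with 53588 and 243 counts, so the ADAM32 value is uncertain, and whether reads past the end of ADAM9 entered it was not tested. The sources used here do not give whether strand entered the counting. The ADAMTS-like genes had estimates of 0.44 for ADAMTSL1, 0.29 for ADAMTSL4 and 0.10 for ADAMTSL5. ADAMTSL1 did not overlap, with 1.88, 1.69 and 1.70 CPM in WT against 2.82, 2.13 and 2.21 in R272K, and was not called (adjusted p = 0.425, edgeR).

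The makeup of the family can be read within a library, where no scaling between libraries enters. ADAM9 supplied 41.2%, 40.6% and 42.3% of the members' TPM in WT libraries 1 to 3 and 44.8%, 45.4% and 44.4% in R272K libraries 1 to 3. The share of ADAMTS15 was 13.6%, 13.3% and 12.3% in WT and 9.68%, 9.24% and 9.76% in R272K. The ratio of ADAMTS15 to ADAM19 in TPM was 1.21, 1.12 and 1.07 in WT and 0.796, 0.731 and 0.791 in R272K. Its ratio to ADAM10 was 1.31, 1.23 and 1.10 in WT and 0.855, 0.813 and 0.849 in R272K. In TPM, ADAMTS15 was thus the highest of these 3 genes in each WT library and the lowest in each R272K library. The WT order depends on the scaling by length. In CPM ADAM10 stood above ADAMTS15 in every library, with 189.7, 220.0 and 233 against 133.8, 146 and 139 in WT. The length trend of WT replicate 1 was not removed from these ratios. These ratios were chosen after the values were seen, and no test is given for them.

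The members' summed level was 1123, 1260.4 and 1305 CPM in WT libraries 1 to 3, and 1392, 1395 and 1399.6 CPM in R272K libraries 1 to 3. WT replicate 1 was the lowest library, and the groups did not overlap with or without it. In TPM the sums were 479, 578 and 607 in WT and 625, 621 and 639 in R272K. Without ADAM9 the sums were 646, 736 and 744 CPM in WT and 761, 755 and 769 CPM in R272K.

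The 23 members that were not tested had 1 to 62 counts over the 6 libraries, with a median of 6. They include the sheddases ADAM12, ADAM28 and ADAM33, the germ-line genes ADAM2 and ADAM18, and ADAMTS5, a main aggrecan-cutting enzyme of cartilage, which had 3 counts. Among them ADAMTS19 had 0 counts in the WT libraries and 1, 2 and 3 in the R272K libraries, and ADAM29 had 0 in WT and 1 in each R272K library. A count of 0 in a single library allows up to 3 counts by counting error alone. Summed over the libraries of a group, ADAMTS19 had 0 counts in WT and 6 in R272K, and ADAM29 had 0 and 3. Neither gene passed the filter, so these differences were not tested in the reported fit.

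Genes that control or receive the action of these proteases were taken from lists of 76 genes, of which 64 were tested. In R272K 6 rose, none fell and 58 were not called, where 0.685% of all genes tested were called higher and 0.528% lower. The lists were chosen with earlier results of these data known, so these shares stand side by side only as a description. The median log2 fold change of the 64 genes was 0.11. Without WT replicate 1, 16 were called higher and 2 lower, the latter being IL6R and THBS1, against 5.36% of all genes. With the length trend removed 12 were called higher and 1 lower (IL6R), against 3.89% of all genes. Without a filter 9 were called higher and 1 lower (TIMP1), against 1.29% of all genes. In the reported fit every called gene was one of the 48 tested substrates. None of the 16 tested regulators was called in edgeR's test, where 1.21% of all genes tested were called. So few regulators allow no contrast with the substrates. At an unadjusted p below 0.05 there were 3 regulators, against 14.3% of all genes tested. TIMP1, a secreted inhibitor of metalloproteinases, stood at 132 ± 19.3 CPM (SD, n = 3) in WT and 109 ± 4.38 (SD, n = 3) in R272K, with WT replicate 1 the highest library (log2 fold change -0.27, adjusted p = 0.182, edgeR). Without that library the log2 fold change was -0.15 (adjusted p = 0.0872, edgeR). FURIN, a convertase that removes the ADAM prodomain, had a log2 fold change of 0.20 (adjusted p = 0.151, edgeR). TSPAN15, a tetraspanin partner of ADAM10, had 0.19 (adjusted p = 0.282, edgeR). Without WT replicate 1 both were called higher, FURIN at 0.18 (adjusted p = 0.0354, edgeR) and TSPAN15 at 0.28 (adjusted p = 0.000657, edgeR). TSPAN15 was also called with the length trend removed (0.25, adjusted p = 0.0130, edgeR).

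Among substrates, 4 of 18 adhesion and other membrane proteins rose, where 0.685% of all genes tested were called higher. CDH1, the adhesion protein E-cadherin, which ADAM10 sheds, stood at 2.05, 2.70 and 3.01 CPM in WT and 6.83, 6.25 and 6.32 in R272K (log2 fold change 1.33, adjusted p = 0.00174, edgeR). CX3CL1, a membrane-bound chemokine released by ADAM10 and ADAM17, rose by 0.52 on the log2 scale, with 36.7 ± 2.04 CPM in WT and 52.6 ± 3.93 in R272K (SD, n = 3 each, adjusted p = 0.00564, edgeR). EFNA1, an ephrin ligand, rose by 0.48 on the log2 scale (adjusted p = 0.00782, edgeR). SDC4, a heparan sulfate proteoglycan of the cell surface, rose from 438 ± 16.7 to 556 ± 18.2 CPM (SD, n = 3 each), by 0.34 on the log2 scale (adjusted p = 0.0126, edgeR). None of these 4 genes overlapped between groups, which adds nothing to calls made on the same libraries. Of the 18 genes, 11 lay above WT in all R272K libraries, against 10.9% of all genes tested. This list too was chosen with earlier results of these data known.

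Of 10 tested matrix substrates of ADAMTS proteases, 2 rose, where 0.685% of all genes tested were called higher. COL1A1, whose procollagen is a target of ADAMTS2 and ADAMTS14, stood at 148 ± 3.91 CPM in WT and 241 ± 11.2 in R272K (SD, n = 3 each), without overlap. Its log2 fold change was 0.70 with an adjusted p of 3.51e-05 (edgeR). FN1, or fibronectin, rose by 0.58 on the log2 scale, with 60.9 ± 7.95 CPM in WT and 91.1 ± 4.24 in R272K (SD, n = 3 each, adjusted p = 0.00540, edgeR). VCAN, the versican core protein cut by ADAMTS1 and ADAMTS15, had an estimate of 0.72 and was not called (adjusted p = 0.232, edgeR). With each library left out the VCAN estimate ran from 0.44 to 1.04. WT replicate 1 was the lowest library for VCAN, FN1 and CDH1. Without that library the log2 fold change was 0.48 for FN1 and 1.17 for CDH1. CDH1 and COL1A1 were called in every fit that left out 1 library. CX3CL1 lost its call without R272K replicate 1 or 3 (adjusted p of 0.0675 and 0.0783) and FN1 likewise (0.0533 and 0.0834). FN1 was also not called by limma on log2(TPM + 0.1) or log2(TPM + 1) (adjusted p of 0.0888 and 0.0876). EFNA1 lost it without R272K replicate 1 or 2 or WT replicate 2 (0.0889, 0.0890 and 0.0549, edgeR). SDC4 lost it without R272K replicate 1, 2 or 3 or WT replicate 2 (0.109, 0.162, 0.0857 and 0.09997, edgeR).

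In the reported fit no gene was called among 5 EGFR ligands, 8 Notch receptors and ligands, and 7 cytokines and cytokine receptors. Of all genes tested, 1.21% were called in it, and lists this short allow no contrast with that share. The median log2 fold changes of the lists were 0.02, 0.05 and 0.18. In the last group KITLG, the KIT ligand, had 0.53 (adjusted p = 0.0561, edgeR), and TNF, a main substrate of ADAM17, had 0.57 (adjusted p = 0.142, edgeR). IL6R, the interleukin-6 receptor that ADAM17 and ADAM10 shed, stood lower, at 53.5 ± 1.15 CPM in WT and 44.1 ± 1.12 in R272K (SD, n = 3 each), without overlap (-0.28, adjusted p = 0.0749, edgeR). Without WT replicate 1, KITLG, TNF and CSF1 were called higher and IL6R lower, with log2 fold changes of 0.46, 0.69, 0.18 and -0.29 (adjusted p of 0.0326, 0.0255, 0.0426 and 0.00494, edgeR). In that fit the EGFR ligand AREG was also called higher, at 0.22 against 0.093 with all libraries (adjusted p = 0.0176, edgeR). Of all genes tested, 5.36% were called without WT replicate 1.

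**Figure D4:**
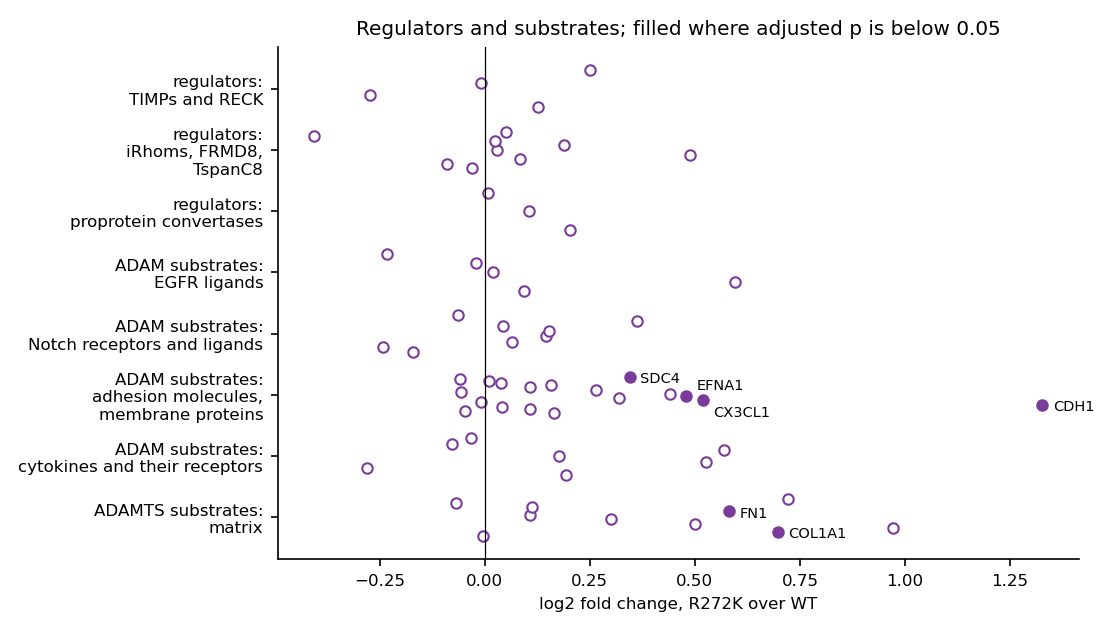
Log2 fold change of R272K over WT for the tested regulators and substrates, grouped by list, with called genes marked and named. The 6 called genes, from SDC4 at 0.34 to CDH1 at 1.33, all lie above 0. They are among the 48 tested substrates, beside 16 tested regulators.

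The alternatives moved the members near the threshold in and out of a call while their estimates kept their sign. ADAMTS15 was called in 9 of 18 alternative fits, with log2 fold changes from -0.32 to -0.25. ADAM9 was called in 7, ADAM19 in 4 and ADAM10 in 2, each time higher in R272K. The share of all genes called was 1.24% with RLE and with upper quartile scaling and 1.34% by library size only. It was 1.29% without a filter, 1.31% with the 1 CPM filter and 2.08% in DESeq2, the last counted over 13443 genes with an adjusted p. In limma-voom it was 1.23% and with the replicate block 1.65%. It was 3.89% with the trend of expression with length removed, 5.72% with that and without WT replicate 1, and 0.654% and 0.635% with limma on log2(TPM + 1) and log2(TPM + 0.1). Leaving out WT replicate 2 or 3 gave 0.512% and 1.69%, and leaving out R272K replicate 1, 2 or 3 gave 0.362%, 0.367% and 0.337%. The plot of estimates by fit shows these ranges.

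**Figure D5:**
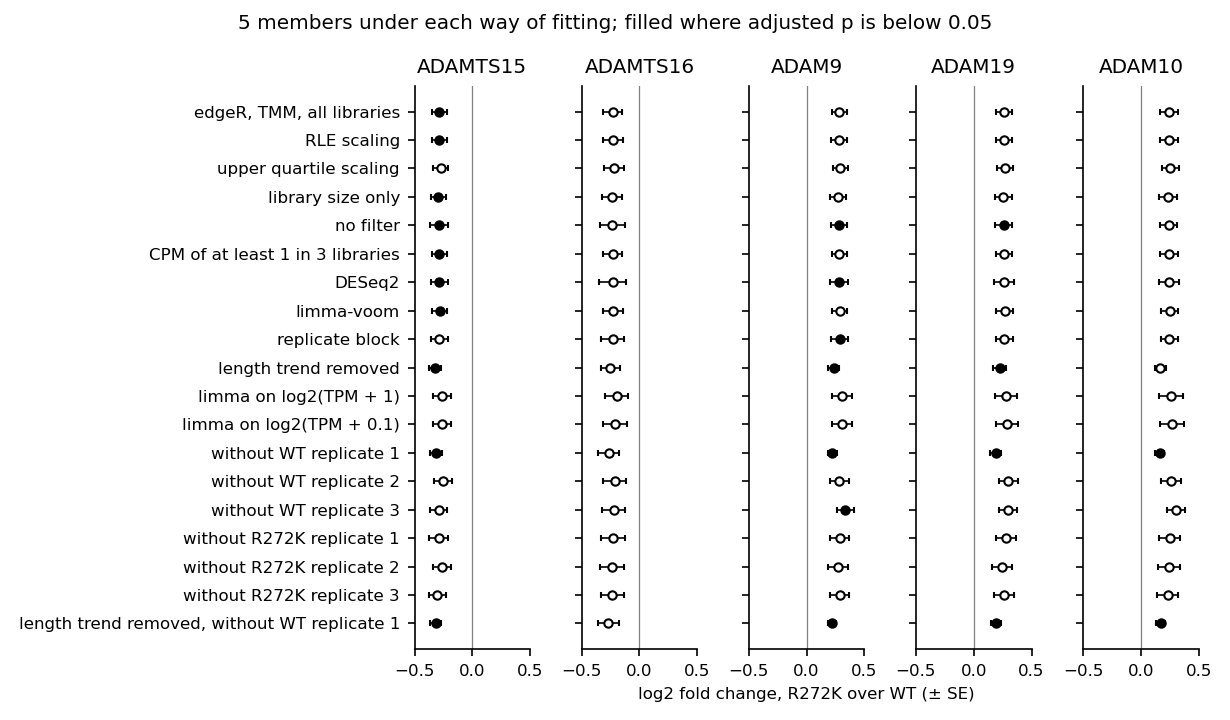
Log2 fold change of R272K over WT for ADAMTS15, ADAMTS16, ADAM9, ADAM19 and ADAM10 in the reported fit and in each alternative, with called values marked. ADAMTS15 and ADAMTS16 lie below 0 and ADAM9, ADAM19 and ADAM10 above 0 in all fits, and ADAMTS15 is called in 9 of 18 alternatives.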

How the data were processed

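Poly(A) RNA of 6 libraries was sequenced. Per the submitters' processing notes, reads were processed with HTSeq 0.10.0, SAMtools, HISAT2 2.1.0 and fastp 0.23.0 on GRCh38. The sources used here give neither settings nor the annotation release. The authors deposited raw counts per symbol and, for the same libraries, a TPM signal scaled by length. Both had 62710 lines for 60835 symbols, since 453 symbols were repeated on 1875 extra lines, and each symbol was used once. Relative length is the ratio of count to TPM.

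Genes passing edgeR's filter (minimum count 10, minimum total 15) were TMM-scaled and tested by edgeR's robust quasi-likelihood test, 3 R272K against 3 WT libraries, two-sided. P-values were Benjamini-Hochberg adjusted over 15911 genes, and calls were made below 0.05. Log2 fold changes are R272K over WT, with standard errors (SE). The work used matplotlib 3.10.9, pandas 2.3.3, numpy 2.4.6 and Python 3.11.15, and DESeq2 1.42.0, limma 3.58.1 and edgeR 4.0.16 in R 4.3.3. The script was tested on simulated data.

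The members and gene lists were chosen with earlier results of these data known. Named were SMAD4, called members, members whose groups do not overlap, the 6 most abundant, those at the filter's edge, and from each regulator and substrate list all called genes and up to 4 others by smallest p. Other members are named to account for the family. Some genes that the rule takes are given only as counts. Each replicate pair differed beyond sampling noise, with a chi-square of at least 1.80 per degree of freedom. Counting error alone sets a smaller spread than that between replicates.

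Alternatives were scaling by library size only, by RLE or by upper quartile, limma-voom, DESeq2, no filter, a minimum of 1 CPM in 3 libraries, a replicate block, the length trend removed by a smoothed offset, limma on log2(TPM + 1) or log2(TPM + 0.1), and each library left out. A fit without WT replicate 1 and with the length trend removed was added after seeing the data.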

Additional observations from a re-analysis of the deposited data

How the results depend on the processing

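The number of all genes called, 193, was 619 with the length trend removed, 934 with it removed and WT replicate 1 left out, 474 without a filter, 101 and 104 with limma on log2(TPM + 0.1) and log2(TPM + 1), and 55 to 875 with each library left out. Called members, 1 in the reported fit, numbered 2 with DESeq2 (1 higher), 3 with the length trend removed (2 higher), 4 with that and without WT replicate 1 (3 higher), 3 without a filter (2 higher), 0 with either TPM fit (0 lower), 0 with upper quartile scaling (0 lower), and 0 to 4 with each library left out (0 to 3 higher, 0 to 1 lower). Called regulators and substrates, 6, numbered 13 and 18 with the length trend removed, with and without WT replicate 1 respectively, 10 without a filter and 2 to 18 with each library left out. The members' median of 0.16 was 0.24 with the 1 CPM filter and 0.14 to 0.23 with each library left out. Same-numbered replicates did not deviate together (correlations of -0.068, -0.023 and -0.016). These values show no pairing by number, but with 3 libraries a group they cannot exclude that same-numbered libraries were prepared together. With the replicate block 1 member was called higher (ADAM9, adjusted p = 0.0456) and 0 lower (ADAMTS15, adjusted p = 0.0613), against 1.65% of all genes, by edgeR.

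Among the named genes, the estimates of ADAM17, ADAMTS4, EREG, PCSK7, TGFA and TIMP2 changed sign in some fit, and none of them was called in the reported fit. With the length trend removed, ADAM17 was -0.0099 and PCSK7 -0.066; without WT replicate 1 as well, ADAM17 was -0.088, ADAMTS4 0.12, EREG -0.063 and PCSK7 -0.0012, and PCSK7 was -0.0012 by library size only. TIMP2 was 0.0067 in both TPM fits and 0.00063 with upper quartile scaling. With each library left out the ranges were -0.088 to 0.096 for ADAM17, -0.56 to 0.26 for ADAMTS4, -0.063 to 0.079 for EREG, -0.057 to 0.065 for PCSK7, -0.64 to 0.040 for TGFA and -0.092 to 0.032 for TIMP2. The cause was not tested. Over the single genes, 790 alternative values kept direction and side of the threshold, 47 passed it newly, 22 no longer passed and 21 changed sign. With 3 libraries a group and a median of 6 counts, no difference is read for the untested members. Without a filter all 46 members were fitted, and those called were ADAM9, ADAM19 and ADAMTS15, which the reported fit also tested.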

Other observations

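Beside the members, 21 symbols resembled their names without fitting the digits-only rule, among them antisense and pseudogene symbols. They held 0 to 35 counts over the 6 libraries, and 9 of them held 0. ADAMTS8 and ADAMTS15 lie 20.0 kb apart on opposite strands of chromosome 11 and had 13 and 11846 counts. ADAMTS1 and ADAMTS5 lie 72.5 kb apart on chromosome 21 and had 848 and 3 counts. These neighbours were looked at after the values were seen, and no test was made of them.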
